A study of Homo sapiens with 23 samples.

Results

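HepG2 cells that shared a closed circulation of medium with Caco-2 cells were compared after 1 day with FFAs and without FFAs (control). The comparison rested on 6 of the 23 mRNA-seq libraries of the study, 3 from FFAs-treated and 3 from control cells, and on every gene with a mean of at least 1 TPM (transcripts of a gene per fixed total of transcripts in its library) in either group. This left 13634 of 60564 genes, of which 392 reached 1 TPM through the FFAs-treated group alone and 303 through the control group alone. HepG2 is an established line from a human hepatocellular carcinoma, and Caco-2 is an established line from a colorectal adenocarcinoma that is widely used as a model of the intestinal epithelium. The 2 lines sat in separate chambers of the iGLC platform, a microfluidic chip in which a micro-pump moves medium between an intestinal and a hepatic chamber. Both groups were co-cultured, and neither line was genetically altered. The FFAs were palmitic acid and oleic acid at a molar ratio of 1:2 and a total of 1 mM. The labels name low-serum medium during the treatment, whereas the methods of the study name serum-free medium with albumin, and this difference could not be settled. HepG2 cells that were mono-cultured with and without FFAs (3 libraries each) served as a second pair of groups. The labels give replicate numbers but do not say whether replicates came from separate chips. The methods of the study state at least 2 independent experiments for mRNA-seq, without tying them to single libraries. The p-values therefore measure the spread between these libraries, which may be technical.

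A saturated fatty acid such as palmitic acid is toxic to hepatocytes at high levels, and oleic acid, a monounsaturated one, helps to store it as triglyceride in lipid droplets. Fatty acids enter the cell, are joined to coenzyme A, and are then oxidised in mitochondria, built into triglyceride, or exported in lipoproteins. They are also ligands of the nuclear receptor PPAR-alpha, whose target genes include enzymes of fatty acid oxidation. Unsaturated fatty acids can lower the activity of SREBP-1c, the factor that drives the genes of fatty acid synthesis. Excess palmitic acid is known to disturb the endoplasmic reticulum and to engage stress programmes, of which the ATF4 branch (amino acid synthesis and transport genes), the NRF2 branch (antioxidant genes) and the heat shock genes are the best described.

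TPM are relative values, and the number of reads behind a library is unknown. Between 19259 and 21588 genes were above 0 TPM in the control libraries and between 20307 and 22416 in the FFAs-treated libraries. All 16 hepatocyte markers on the list were expressed, and 5 of 8 fibroblast and endothelial markers and 3 of 6 leukocyte markers were under 1 TPM in both groups. The rest of these 2 lists reached 1 TPM. Among them the leukocyte marker LYZ had means of 783 TPM in the control and 775 TPM with FFAs, and the fibroblast marker PDGFRB had 7.53 and 7.19 TPM. The third replicates stood apart from the others in all 4 HepG2 groups. The FFAs-treated replicate 3 correlated with control replicate 3 at r = 0.987 (Pearson, log2(TPM + 1), across genes) and with the other controls at 0.968 and 0.965. FFAs-treated replicate 1 stood apart in another way, since its highest correlation was with replicate 1 of mono-cultured FFAs-treated cells (0.985), against 0.972, 0.978 and 0.966 with the co-cultured controls. Results that rest on these libraries are given with and without them.

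The first question was which genes FFAs changed in co-cultured HepG2 cells. No gene passed limma's test at a Benjamini-Hochberg adjusted p under 0.05, and the smallest adjusted p was 1. At an unadjusted p under 0.05 there were 259 genes (1.90% of those tested), 155 higher (1.14%) and 104 lower (0.763%) with FFAs, a share below the threshold itself. Every difference below is therefore a difference between these libraries that did not pass the adjusted test, with an adjusted p of 1 (limma) unless another value is given. A second description asked for separation, with every FFAs-treated library above or below every control library. It held for 411 genes higher (3.01%) and 335 lower (2.46%) with FFAs. For 428 genes (3.14%), 263 higher (1.93%) and 165 lower (1.21%), the means also differed by at least 1.2-fold. Of all genes tested, 7141 (52.4%) had a higher mean with FFAs, the median log2 fold change was 0.01, and the central 90% of genes lay between -0.32 and 0.36. The standard error of a gene's log2 fold change was 0.20 at the median, so that differences of the size most genes showed could not be resolved with 3 libraries a group.

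**Figure D1:**
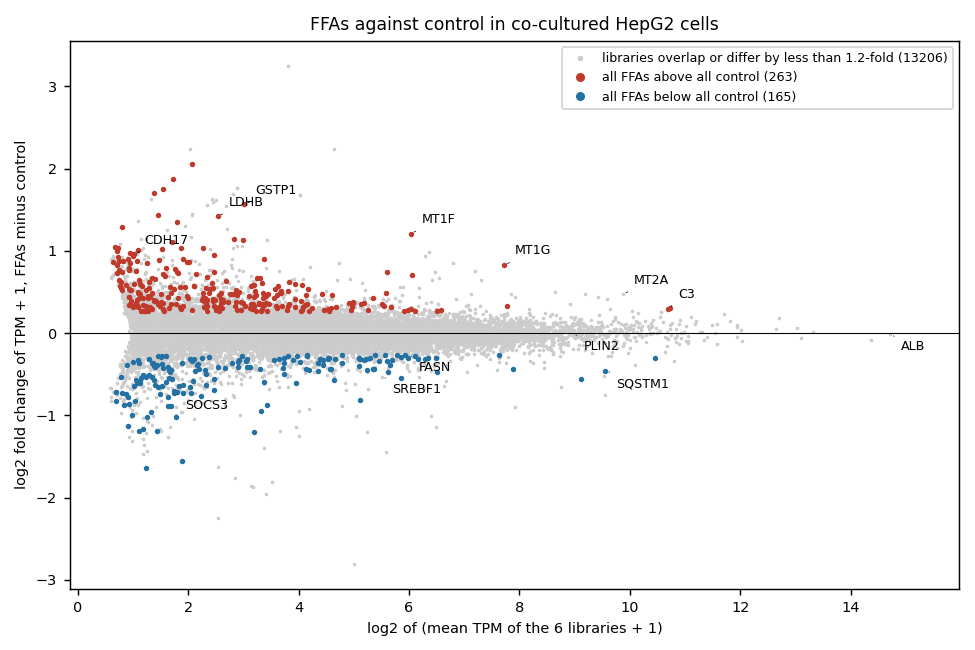
Each point is one of 13634 genes, with the log2 of its mean TPM + 1 over the 6 co-cultured HepG2 libraries on the x axis and the log2 fold change of TPM + 1 (FFAs minus control) on the y axis. Red and blue points are the 263 and 165 genes whose libraries were separated with at least a 1.2-fold difference, and the spread of the grey points narrows with the level, so that MT1F and MT1G stand out among well-expressed genes while ALB and PLIN2 lie at 0.

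The genes closest to lipid handling differed little. The PPAR-alpha and fatty acid oxidation list had 30 of 34 members tested. Of these, 20 were higher and 10 lower, and the median log2 fold change was 0.04 (-0.03 to 0.14 with single libraries left out). Control replicate 3 was the lowest of the 6 libraries in 21 of the 30 (70.0%, against 14.4% of all genes tested). Several PPAR-alpha targets were low or did not differ beyond the spread. PDK4, a kinase that shuts off pyruvate oxidation when fat is burned, was under the limit of 1 TPM, with 0.04, 0.04 and 0.07 TPM in the control and 0.14, 0.25 and 0.27 TPM with FFAs. All FFAs-treated libraries were above all controls, as they also were in mono-culture (0.07, 0.04 and 0.03 against 0.17, 0.28 and 0.33 TPM). ANGPTL4, a secreted inhibitor of lipoprotein lipase, had 0.70, 0.27 and 0.61 TPM without and 1.53, 0.67 and 1.74 TPM with FFAs, so that the groups overlapped, and was tested only because the FFAs-treated group reached 1 TPM. CPT1A, which carries fatty acids towards the mitochondrial matrix, had 8.43, 4.66 and 5.07 TPM in the control and 6.03, 7.12 and 5.81 TPM with FFAs, a difference within the spread of the libraries. PDK4, ANGPTL4 and CPT1A were chosen after their values were seen. Abundant members of the list lay close to 0, for example ACADVL, the very-long-chain acyl-CoA dehydrogenase, at 0.10, and FABP1, the abundant fatty acid binding protein of hepatocytes, at -0.13.

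Lipid droplet genes did not differ as a group. Of 27 tested members, 14 were higher and 13 lower, with a median log2 fold change of 0.00 and none at an unadjusted p under 0.05. PLIN2, which coats lipid droplets and is often used as a marker of lipid loading, had 434, 435 and 627 TPM in the control libraries. With FFAs it had 404, 456 and 636 TPM, so the third replicate was the highest in both groups and the mean did not move. The log2 fold change was -0.01, with a 95% confidence interval from -0.43 to 0.42. In mono-culture, PLIN2 had 313, 287 and 419 TPM without and 410.2, 388 and 439 TPM with FFAs (log2 fold change 0.30, SE 0.20), where the groups overlapped too. The difference between the cultures, -0.30 (SE 0.28), was close to its standard error. CIDEB, a droplet protein that also serves in the loading of very-low-density lipoprotein, was separated in co-culture, with 55.5, 52.1 and 59.2 TPM against 64.1, 60.0 and 80.7 TPM (log2 fold change 0.28, SE 0.16, and 0.16 without FFAs-treated replicate 3).

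Genes of fatty acid synthesis were split. Of 18 tested members, 7 (38.9%) were higher and 11 lower, against 52.4% of all genes higher, and the 2 at an unadjusted p under 0.05 were both lower (0.763% of all genes). SREBF1, which encodes SREBP-1, had 58.2, 52.9 and 46.0 TPM in the control and 29.9, 46.0 and 33.2 TPM with FFAs. The highest FFAs-treated library just reached the lowest control, and the log2 fold change was -0.53 (SE 0.19). FASN, the fatty acid synthase and a target of SREBP-1, had 65.0, 71.9 and 65.9 TPM without and 56.6, 56.6 and 55.6 TPM with FFAs. The FFAs-treated libraries were tightly grouped below all controls, at a log2 fold change of -0.26 (SE 0.12). In mono-culture SREBF1 was lower by a log2 fold change of -0.31, while FASN was at 0.06. Other members had larger spreads, with FADS2, a fatty acid desaturase, at -0.47 (SE 0.25) and SCD, the stearoyl-CoA desaturase that makes oleic acid, at -0.14 (SE 0.20). The median of the list, -0.06, lay between -0.17 and 0.03 when single libraries were left out and turned positive without FFAs-treated replicate 3. Of 30 sterol synthesis and regulation genes, 18 were higher with a median of 0.04. HMGCS1, which makes HMG-CoA in the cytosol, had the highest value among them, with 112, 118 and 105 TPM against 225, 161 and 106 TPM. MYLIP, a ubiquitin ligase that marks the LDL receptor for degradation and a target of the sterol sensor LXR, was separated in the other direction, with 4.97, 4.03 and 3.24 TPM against 2.16, 2.52 and 2.43 TPM.

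**Figure D2:**
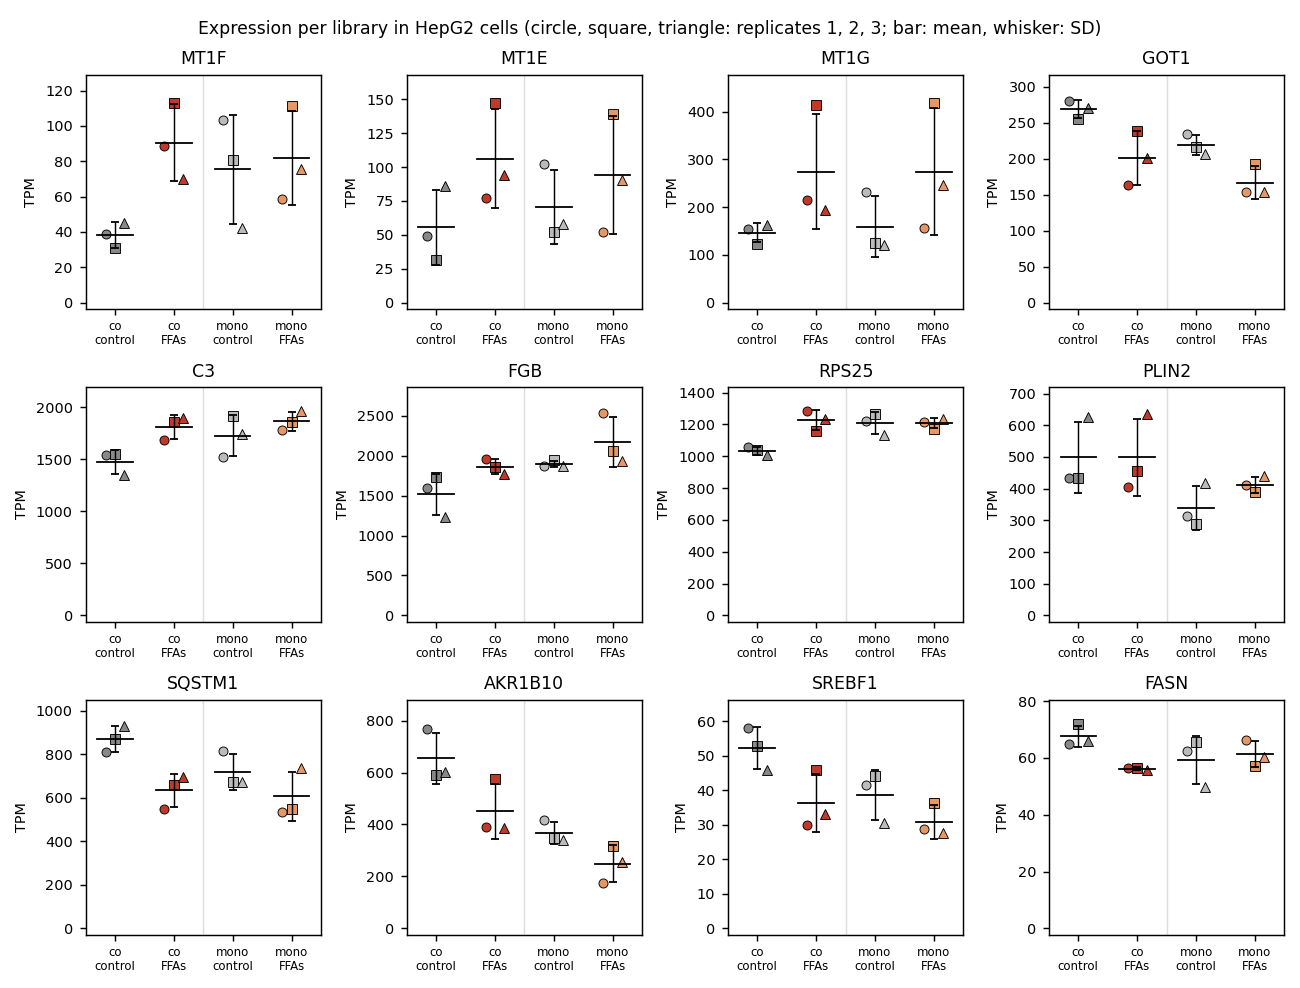
TPM of 12 genes in each HepG2 library, with groups on the x axis (co-cultured or mono-cultured, control or FFAs), one symbol per replicate, a bar for the mean and a whisker for the SD of 3 libraries. MT1F, MT1G, GOT1, C3, FGB, RPS25, SQSTM1, AKR1B10 and FASN show no overlap between co-cultured groups, while PLIN2 is highest in the third replicate of both co-cultured groups.

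The metallothionein genes MT1F, MT1E, MT1G, MT1X and MT2A all had a higher mean with FFAs. The proteins are short and rich in cysteine, hold zinc and copper, and are encoded by a cluster of genes on chromosome 16. Their promoters carry metal response elements, the binding sites of the zinc-sensing factor MTF1, and glucocorticoid and oxidative signals also act on them. MT1F (chromosome 16, 56657731 to 56660698 of GRCh38) had the smallest p among the genes higher in co-culture that the naming rule covers. It had 39.0, 30.7 and 45.2 TPM in the control and 88.4, 113 and 70.0 TPM with FFAs, or 38.3 ± 7.29 against 90.6 ± 21.7 TPM (SD, n = 3). The lowest FFAs-treated library stood clear of the highest control. The log2 fold change was 1.21 (SE 0.32, 95% confidence interval 0.52 to 1.90), with an unadjusted p = 0.00258 in the limma model. Leaving out single libraries kept it between 1.04 and 1.38.

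The neighbouring genes had wider control values. MT1G had 154, 124 and 162 TPM without and 215, 413 and 195 TPM with FFAs, so the groups were separated, at a log2 fold change of 0.83 (SE 0.37) that was 0.49 without FFAs-treated replicate 2. MT1E had 49.4, 31.5 and 86.0 TPM without and 77.4, 147 and 94.0 TPM with FFAs, and 1 FFAs-treated library was below the highest control (0.98, SE 0.42, and 0.64 without control replicate 2). MT1X had 72.5, 48.9 and 118 TPM without and 97.3, 179 and 145 TPM with FFAs (0.86, SE 0.49, and 0.55 without control replicate 2). MT2A, the most abundant member, was the most variable, with 591, 341 and 1681 TPM without and 666, 1241 and 1093 TPM with FFAs (0.47, SE 0.51), a difference of -0.04 without control replicate 2 and of 1.11 without control replicate 3. In all 5 genes, FFAs-treated replicate 2 was the highest FFAs-treated library and control replicate 2 was the lowest control. Of the 16 tested genes of metallothioneins and of zinc or copper handling, 11 (68.8%) were higher and 5 lower, against 52.4% of all genes higher, and 3 reached an unadjusted p under 0.05, all 3 higher (1.14% of all genes). The median was 0.22, against 0.01 over all genes tested, and lay between 0.09 (without control replicate 2) and 0.31 when single libraries were left out. The zinc exporter SLC30A1, which MTF1 also controls, did not move with them, with 39.0, 35.3 and 35.4 TPM against 20.4, 52.3 and 40.9 TPM, and MTF1 itself had a log2 fold change of 0.24. The reads of metallothionein paralogs can be split between near-identical copies by the counting, so the share of each single gene is uncertain.

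Of these 5 genes, MT1X and MT2A were found in the promoter table, and their promoters are shown for the element through which zinc acts on this family. Neither gene reached an unadjusted p under 0.05 or was separated. The sequences are the 250 bases before the start of each gene in RefSeq (GRCh38.p14, plus strand), in lower case, with the cores of metal response elements in capitals.
MT1X, chr16:56682220-56682469: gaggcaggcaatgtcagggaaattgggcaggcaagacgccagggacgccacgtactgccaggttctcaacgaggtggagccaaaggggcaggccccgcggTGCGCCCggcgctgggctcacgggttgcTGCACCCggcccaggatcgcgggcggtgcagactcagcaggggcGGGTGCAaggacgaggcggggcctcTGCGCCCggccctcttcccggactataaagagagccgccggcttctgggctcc
MT2A, chr16:56608334-56608583: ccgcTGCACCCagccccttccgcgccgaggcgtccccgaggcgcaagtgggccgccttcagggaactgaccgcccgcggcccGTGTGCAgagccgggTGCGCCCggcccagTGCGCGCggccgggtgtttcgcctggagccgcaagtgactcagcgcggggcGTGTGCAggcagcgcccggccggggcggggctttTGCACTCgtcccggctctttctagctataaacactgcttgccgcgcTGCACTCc
The search used TGCACNC and TGCGCNC on both strands, 2 forms of one core. MT1X held 4 such cores, 3 on the strand shown and 1 on the other, and MT2A held 7, 5 and 2. Of 35116 promoters of the same length, 24.8% held at least 1 core and 0.37% held at least 4. A match describes these letters and is not evidence of binding in these cells.

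In mono-cultured HepG2 cells the log2 fold changes of the 5 genes were between 0.11 and 0.73, each smaller than in co-culture. MT1F had 103, 80.8 and 42.4 TPM without and 58.7, 111 and 75.3 TPM with FFAs, a log2 fold change of 0.15. The co-cultured controls were thus the low group, since every FFAs-treated and mono-cultured mean was higher than theirs. The difference of the FFAs effect between cultures was 1.05 (SE 0.45, limma adjusted p = 1), which did not pass the test. MT1G differed by about as much in mono-culture (0.73) as in co-culture (0.83), with the same high replicate 2 at 418 TPM. The 16 genes of the list were split into 7 higher and 9 lower in mono-culture, with a median of 0.00.

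The genes lower with FFAs were led by SQSTM1 (chromosome 5, 179806398 to 179838078), the selective autophagy receptor p62. It had 810.1, 871 and 932 TPM in the control and 551, 659 and 698 TPM with FFAs, or 871 ± 60.9 against 636 ± 76.3 TPM (SD, n = 3). The groups did not overlap, and the log2 fold change was -0.46 (SE 0.14, 95% confidence interval -0.76 to -0.15). In mono-culture it was -0.25 (SE 0.14), with overlap. The gene overlaps MGAT4B and MRNIP on the other strand, which a count without strand could not tell apart. SQSTM1 is itself a target of NRF2, and AKR1B10, an aldo-keto reductase that is among the most responsive NRF2 targets in human liver cells, was also separated. AKR1B10 had 769, 592 and 603 TPM without and 390.5, 574 and 388 TPM with FFAs (-0.55, SE 0.21), and in mono-culture it was separated too (-0.60, SE 0.21). OSGIN1, another target, was lower on average in large part through replicate 1, with 145, 90.9 and 116 TPM against 41.9, 84.2 and 113 TPM. Of 25 NRF2 targets tested, 7 were higher and 18 lower, with a median of -0.09, and NQO1, HMOX1 and GCLM had log2 fold changes of -0.11, -0.06 and -0.13.

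The same rule named 9 other lower genes. GOT1, the cytosolic aspartate aminotransferase, had 281, 256 and 271 TPM without and 163, 239 and 201 TPM with FFAs. It was lower without overlap in both cultures, at -0.43 (SE 0.14) in co-culture and -0.40 (SE 0.14) in mono-culture. KYNU, the kynureninase of tryptophan breakdown, had 118, 103 and 93.9 TPM against 83.4, 81.3 and 62.1 TPM and was likewise separated in both cultures (-0.47 and -0.44). ASL, the argininosuccinate lyase of the urea cycle, had 127, 113 and 109 TPM against 101, 98.7 and 91.1 TPM (-0.26, and -0.14 in mono-culture). SPATA2L, related to the adaptor SPATA2, and AVL9, which takes part in late secretory traffic, had tight groups. SPATA2L had 44.9, 45.8 and 47.0 TPM in the control and 33.7, 35.3 and 31.9 TPM with FFAs, and AVL9 had 39.9, 39.4 and 38.5 TPM against 29.5, 31.0 and 33.0 TPM. Neither was lower in mono-culture, where their log2 fold changes were 0.06 and 0.14. The others named by the same rule were SLC66A1, a lysosomal exporter of cationic amino acids, PIGX, which takes part in the synthesis of GPI anchors, RBM28, a nucleolar protein, and the metallopeptidase LMLN, with log2 fold changes from -0.56 to -0.30.

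The genes higher with FFAs that the rule named beside MT1F were mostly low to moderate in level. ZNF680 and ZNF766, which encode zinc finger proteins, had log2 fold changes of 0.74 and 0.59, and PRPF39, a splicing factor, and RAB8B, a small GTPase of vesicle traffic, had 0.54 and 0.58. EPM2AIP1, a partner of the glycogen phosphatase laforin, had tight groups, with 5.21, 5.44 and 5.06 TPM without and 8.87, 7.47 and 7.28 TPM with FFAs. AL121845.2 had 52.9, 51.9 and 42.0 TPM without and 92.0, 96.8 and 57.6 TPM with FFAs (0.71), and was separated in mono-culture too (0.59). It overlaps SLC2A4RG and LIME1 on the same strand, so its reads may be shared with theirs. RPS25, a protein of the small ribosomal subunit, differed by little but with close libraries, from 1057, 1041 and 1008 TPM to 1285, 1161 and 1234 TPM (0.24, SE 0.08).

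Of 83 cytosolic ribosomal protein genes tested, 69 (83.1%) were higher with FFAs against 52.4% of all genes, and the median was 0.07. RPS25 alone reached an unadjusted p under 0.05. Of these genes 7 were separated, all 7 higher (3.01% of all genes tested), among them RPL22 with 79.5, 80.5 and 95.8 TPM against 111, 97.2 and 103 TPM. These differences were small beside those of single genes above, and they did not occur in every library. Relative to the mean of the controls, the median ribosomal gene stood at 0.14 in FFAs-treated replicate 1, at -0.03 in replicate 2 and at 0.10 in replicate 3, against -0.02 to 0.03 in the controls. Quantile normalization, which forces all libraries to one distribution, lowered the median of the list to 0.04. In mono-culture 58 of the 83 genes were higher, with a median of 0.02. The nuclear-encoded subunits of the respiratory chain, also short and abundant transcripts, had 49 of 78 higher and a median of 0.03. Their median stood at 0.15 in FFAs-treated replicate 1 and at -0.02 and -0.03 in replicates 2 and 3. FFAs-treated replicate 1 was the highest of the 6 libraries in 45 of the 78 (57.7%, against 21.7% of all genes tested).

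Stress programmes differed mainly in 1 library. The list of ATF4 targets, the amino acid and one-carbon genes of the integrated stress response, had 22 of 26 tested members lower with FFAs and a median log2 fold change of -0.21, with none at an unadjusted p under 0.05. In 23 of the 26 genes (88.5%) the lowest of the 6 libraries was FFAs-treated replicate 1, which was the lowest for 22.1% of all genes tested. ATF4 itself had 379, 361 and 405 TPM in the control and 189, 355 and 395 TPM with FFAs. TRIB3, a pseudokinase that ATF4 induces, had 798, 594 and 1125 TPM against 265, 822 and 819 TPM. ASNS, the asparagine synthetase, had 399.8, 267 and 409.7 TPM against 216, 347 and 419 TPM. In these 3 genes replicate 1 was the lowest of all 6 libraries, and the other FFAs-treated libraries lay in or near the control range. Without FFAs-treated replicate 1 the median of the list was 0.10, so the direction of the list rested on that library. Replicate 1 of the mono-cultured FFAs-treated cells was low as well, with ATF4 at 159 TPM against 264 to 348 TPM in the mono-cultured controls.

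The heat shock genes were the mirror image in the same library. Of 18 tested, 13 were higher with a median of 0.10, and FFAs-treated replicate 1 was the highest of the 6 libraries in 11 (61.1%, against 21.7% of all genes tested). A control library stood out as well. Control replicate 1 was the lowest of the 6 in 11 of the 18 (61.1%, against 12.2% of all genes tested). HSPA1A, the inducible cytosolic HSP70, had 90.3, 139 and 120.4 TPM in the control and 325, 113 and 159 TPM with FFAs. HSPA8, its constitutive relative, had 485, 738 and 651 TPM against 1500 TPM in replicate 1 and 547 and 672 TPM in the others. Without replicate 1 the median of the list was -0.01. HSPA1A and HSPA1B are near-identical copies, and their reads can be split by the counting. The mono-cultured FFAs-treated replicate 1 also had the highest HSPA1A of its 6 libraries, at 307 TPM. What set replicate 1 apart in both cultures was not tested.

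**Figure D3:**
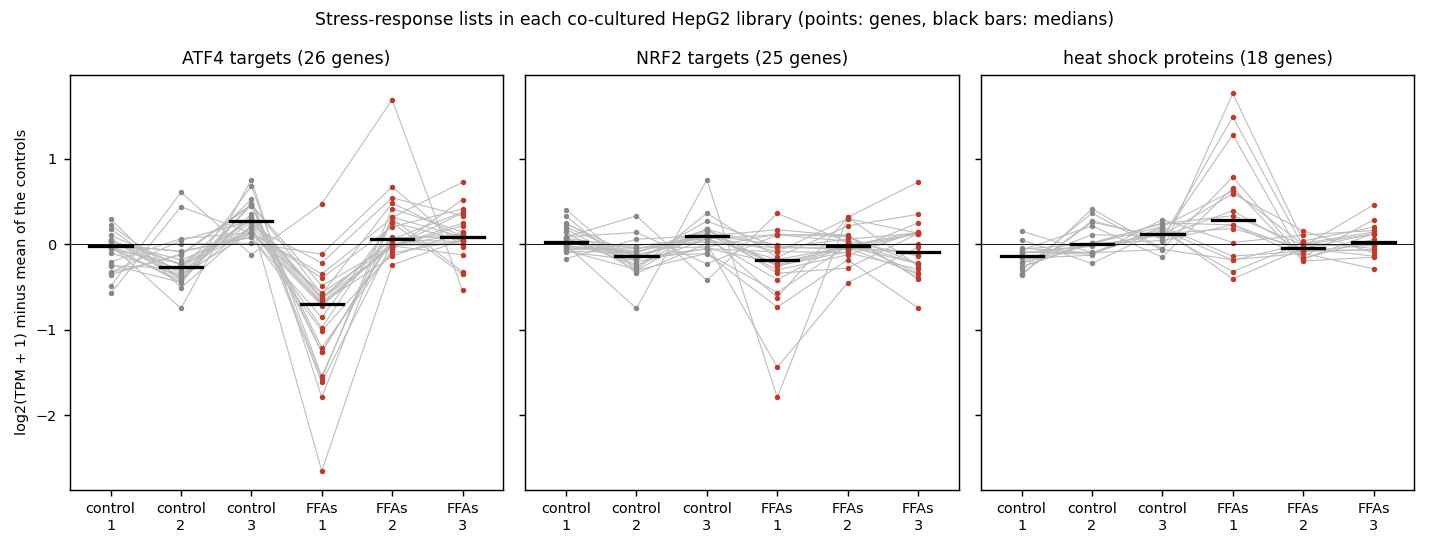
Log2(TPM + 1) minus the mean of the 3 controls (y axis) in each co-cultured HepG2 library (x axis), one point per gene with the median as a bar, for 26 ATF4 targets, 25 NRF2 targets and 18 heat shock genes. FFAs-treated replicate 1 has a median of -0.70 for the ATF4 targets and 0.28 for the heat shock genes, while FFAs-treated replicates 2 and 3 stay between -0.08 and 0.09 in all 3 lists.

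The endoplasmic reticulum chaperones and unfolded protein response genes showed no such split, since the median of the list lay between -0.04 and 0.09 in each FFAs-treated library. Of 23 tested, 15 were higher and 8 lower, with a median of 0.04. HSPA5, the main chaperone of this compartment (BiP), had 829, 926 and 1125 TPM in the control and 1259, 995 and 1201 TPM with FFAs (log2 fold change 0.27, SE 0.17). XBP1, the factor that the sensor IRE1 activates by splicing, differed in the other direction, with 895, 911 and 827 TPM against 713, 829 and 708 TPM (-0.23, SE 0.10). A splicing change would not appear in a value per gene. DDIT3, which encodes the pro-apoptotic factor CHOP, had a log2 fold change of 0.18 (SE 0.29), and 12 of 26 targets of p53 and genes of apoptosis were higher with a median of -0.02.

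Genes of the acute-phase response, which hepatocytes release in inflammation, were split by library as well as by treatment. Of 17 tested, 10 were higher and 7 lower with a median of 0.13, and the median turned to -0.14 without FFAs-treated replicate 3 and to -0.06 without the third replicates of all groups. C3, the central protein of complement, had 1539, 1551 and 1346 TPM in the control and 1683, 1856 and 1900.1 TPM with FFAs. The groups did not overlap, at a log2 fold change of 0.30 (SE 0.10) that was 0.19 without the third replicates of all groups, and 0.12 in mono-culture. C3 overlaps GPR108 on the same strand. The 3 fibrinogen chains, which assemble into 1 clotting protein, were all higher on average. FGB had 1593, 1728 and 1227 TPM without and 1955, 1852 and 1772 TPM with FFAs (0.31, SE 0.13, and 0.16 without control replicate 3), FGG was separated too (0.23, SE 0.13), and FGA overlapped (0.26, SE 0.16). SERPINA3, a protease inhibitor that interleukin-6 induces, followed the replicate and not the treatment, with 434, 494 and 1043 TPM in the control and 462, 486 and 1850 TPM with FFAs. HP, haptoglobin, had its highest values in the third replicates as well, with 321 and 452 TPM.

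SOCS3, the feedback inhibitor of interleukin-6 signalling, was separated in the other direction. It had 2.42, 4.55 and 2.56 TPM in the control and 1.29, 1.08 and 2.11 TPM with FFAs (-0.73, SE 0.28). The NF-kB targets were also mostly lower, 10 of 13, with a median of -0.24 that lay between -0.43 and -0.01 when single libraries were left out, and none reached an unadjusted p under 0.05. ICAM1, an adhesion molecule, had 240.0, 269.5 and 209.6 TPM against 144, 237 and 188 TPM (-0.36, SE 0.27). HAMP, which encodes the iron hormone hepcidin and answers to both interleukin-6 and BMP signals, varied widely within groups, with 84.9, 64.2 and 153 TPM without and 15.4, 136 and 45.9 TPM with FFAs. Of the 9 tested targets of BMP-SMAD signalling, 4 were higher and 5 lower.

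The main products of hepatocytes did not differ between the groups beyond the spread of the libraries. ALB, serum albumin, the main secreted protein of hepatocytes, had 30135, 31170 and 20460 TPM in the control and 23184, 28982 and 27925 TPM with FFAs. The lowest library was a control and the log2 fold change was -0.01 (95% confidence interval -0.41 to 0.39), which leaves room for changes of either sign. APOA1, the main protein of high-density lipoprotein, was at 0.06, TTR, transthyretin, at 0.05 and AFP, alpha-fetoprotein, at -0.06. Of 22 secreted liver proteins, 15 were higher with a median of 0.05, and of 26 genes of apolipoproteins and lipoprotein assembly, 15 were higher with a median of 0.01. One of the latter, APOD, was separated, from 0.24, 0 and 0 TPM to 1.81, 0.63 and 1.16 TPM, but it was tested only because the FFAs-treated group reached 1 TPM.

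Hepatic regulation showed the same small scale. Of 25 hepatic transcription factors and nuclear receptors, 10 were higher and 15 lower, with a median of -0.04. The 22 genes of cytochrome P450, bile acid and drug metabolism had 14 lower and a median of -0.09, which became -0.21 without the third replicates of all groups. Of 35 genes of glycolysis and the response to hypoxia, 21 were lower with a median of -0.05, and ALDOC, a brain-type aldolase that hypoxia induces, was separated, from 42.7, 38.5 and 32.5 TPM to 31.7, 30.0 and 23.6 TPM (-0.40, SE 0.16). Genes of gluconeogenesis and the insulin response had 11 of 19 higher and a median of 0.02, and FBP1, a gluconeogenic phosphatase, was separated at a low level, from 0.53, 1.12 and 1.06 TPM to 1.33, 1.6 and 1.15 TPM, and was tested only because the FFAs-treated group reached 1 TPM. IGFBP1, which insulin represses and ATF4 induces, again set FFAs-treated replicate 1 apart, with 103 TPM against 701 and 1233 TPM in the other FFAs-treated libraries and 822, 455 and 1153 TPM in the control. Cell cycle and DNA replication genes had 20 of 35 higher and a median of 0.04, in which the libraries went apart. Relative to the mean of the controls, their median stood at 0.38 and 0.36 in FFAs-treated replicates 1 and 2 and at -0.64 in replicate 3, which was the lowest of the 6 libraries in 32 of the 35 genes (91.4%, against 22.1% of all genes tested). Without FFAs-treated replicate 3 the median of this list was 0.35, and without the third replicates of all groups it was 0.23. The 22 immediate-early genes had 10 higher and a median of -0.04, with -0.41, 0.39 and -0.04 in the FFAs-treated libraries. Fatty acid uptake and activation genes were evenly split, 11 against 11.

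**Figure D4:**
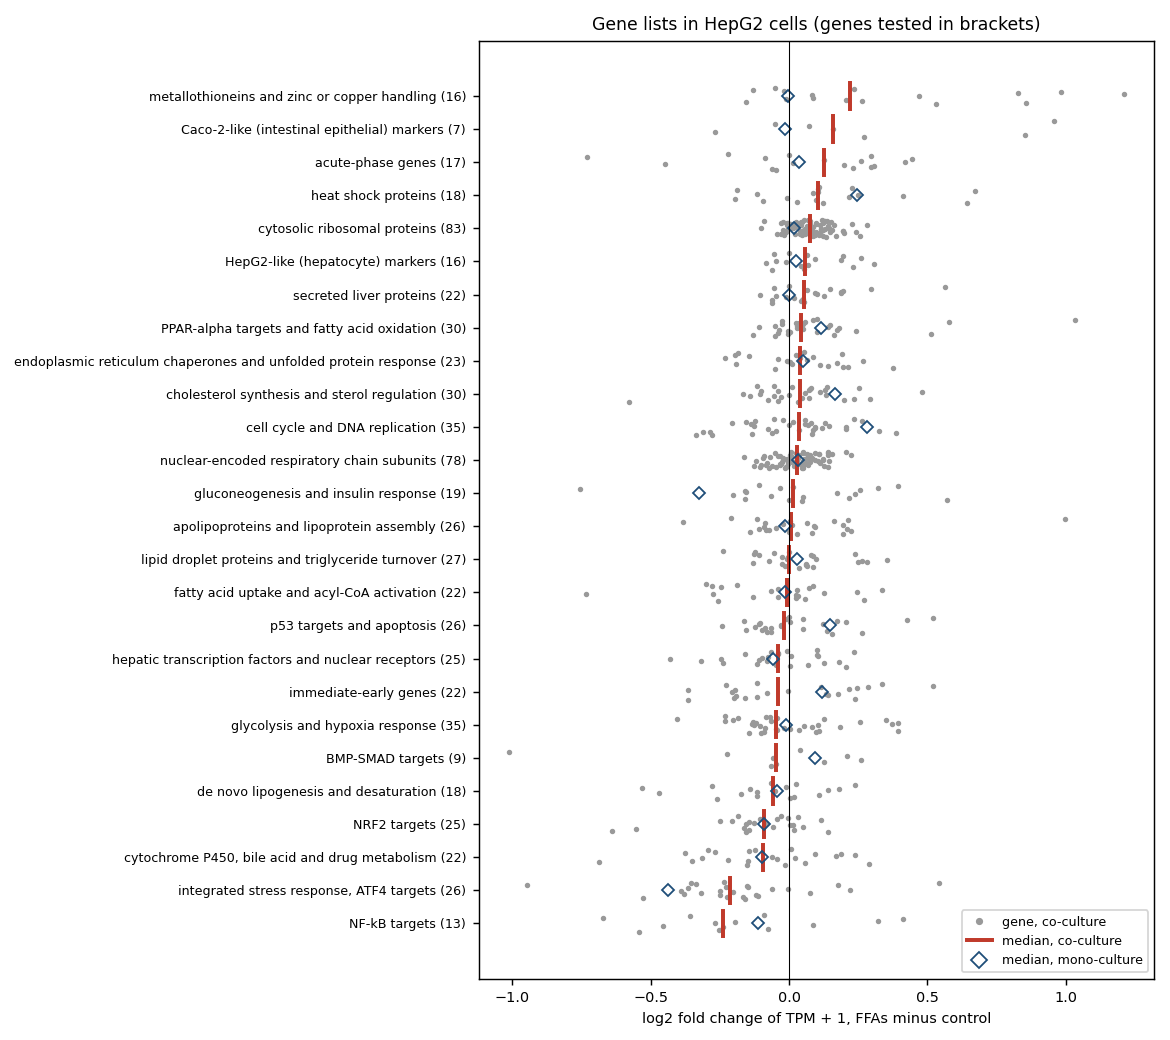
Log2 fold change (FFAs minus control, x axis) of each tested member of the gene lists (y axis) in co-cultured HepG2 cells, with the co-culture median in red and the mono-culture median as a diamond. The metallothionein median is 0.22 co-cultured and 0.00 mono-cultured, and that of the ATF4 targets is -0.21 and -0.44.

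Because the medium circulated between the chambers, transcripts of Caco-2 cells were looked for in the HepG2 libraries. A set of 63 marker genes had at least 50 TPM in every mono-cultured control Caco-2 library and at most 1 TPM in every mono-cultured control HepG2 library. Their sum was 18.1, 20.1 and 15.3 TPM in the control co-cultured HepG2 libraries and 49.4, 22.8 and 43.8 TPM in the FFAs-treated ones. As a percentage of their sum in Caco-2 cells this was 0.221 ± 0.0298 against 0.479 ± 0.174 (SD, n = 3). All FFAs-treated libraries lay above all controls, which gave p = 0.1 in a two-sided exact permutation test, the smallest p that 3 against 3 allows. The mean of 60 of the 63 markers was higher with FFAs, against 52.4% of all genes tested, and 19 were separated, all 19 higher, against 3.01%. These shares are from genes of another level. The genes tested had to reach a mean of 1 TPM, while the markers were chosen for at most 1 TPM in HepG2 controls. The markers can also rise together, so they are not 63 independent observations. In mono-culture the sum lay between 0.127% and 0.231% in the control and between 0.172% and 0.242% with FFAs, so the co-cultured controls (0.190% to 0.249%) overlapped with cells that had met no Caco-2 cells. In bulk RNA, more cells of a type and more RNA per cell cannot be told apart, and where these transcripts came from was not tested.

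The usual intestinal markers gave less information. CDX1 and GPA33 were at 0 in all 6 libraries, and SI, sucrase-isomaltase, did not exceed 0.07 TPM. Mono-cultured control Caco-2 cells had little of them as well, with CDX1 at 0, GPA33 at 2.47, 2.09 and 0.5 TPM and SI at 9.81, 6.73 and 5.66 TPM. Their low values therefore say little about Caco-2 transcripts. The sum of the 16 listed intestinal markers was 24.2% to 31.6% of its Caco-2 level in the control and 28.4% to 32.4% with FFAs, since HepG2 cells carry ANPEP, VIL1 and LGALS2 themselves. CDH17, an intestinal cadherin, had 0.22, 0.26 and 0.47 TPM in the control and 2.75, 0.58 and 1.79 TPM with FFAs. CDHR5, a cadherin of the brush border, had 0.89, 0.65 and 0.42 TPM against 3.17, 2.2 and 0.95 TPM. Both were tested only because the FFAs-treated group reached 1 TPM, so their difference supports nothing.

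Several genes with large differences were genes that Caco-2 cells express strongly. GSTP1, a glutathione transferase, was chosen after its values were seen. It had 2.77, 3.00 and 2.15 TPM in the control and 19.6, 3.97 and 11 TPM with FFAs, and 3284 TPM in Caco-2 cells. LDHB, a lactate dehydrogenase subunit, had 1.27, 3.80 and 1.51 TPM against 9.85, 4.50 and 7.76 TPM, and 2201 TPM in Caco-2 cells. In both genes the order of the FFAs-treated libraries was that of the marker sum. The lowest FFAs-treated library, replicate 2, was not above mono-cultured cells, which reached 5.54 TPM of GSTP1 and 4.53 TPM of LDHB. Among the genes with at least 1 TPM in the control group, 4 of 117 (3.42%) that were higher at an unadjusted p under 0.05 were at least 10-fold higher in Caco-2 than in HepG2 cells, against 154 of 13242 (1.16%) of all such genes. The marker share times the Caco-2 level came to 7.38, 8.19 and 6.24 TPM of GSTP1 in the control and 20.1, 9.28 and 17.8 TPM with FFAs, above the measured value in all 6 libraries, and the same held for LDHB in all 6. For these 2 genes a subtraction leaves 0 in every library and gives no fold change. APOD and CDH17 were left with a value above 0 in only 1 of 6 libraries, FFAs-treated replicate 1. After the subtraction the log2 fold change of CDHR5 was 0.75, from 0.85, and MT1F stayed at 1.21, with only 12.1 TPM in Caco-2 cells.

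**Figure D5:**
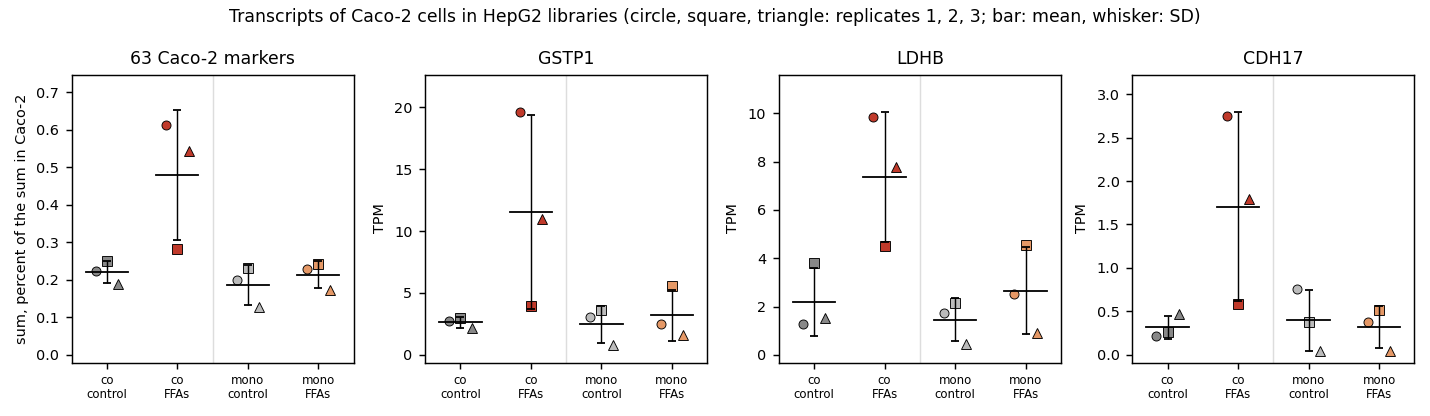
The summed TPM of 63 Caco-2 markers in each HepG2 library as a percentage of their sum in Caco-2 cells, and the TPM of GSTP1, LDHB and CDH17 (y axes), by group (x axes), one symbol per replicate with a bar for the mean and a whisker for the SD. The FFAs-treated co-cultured libraries lie between 0.282% and 0.613%, above the other HepG2 groups, while in the 3 genes FFAs-treated replicate 2 lies within the range of the mono-cultured libraries.

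The last question was whether the effect of FFAs on HepG2 cells differed between co-culture and mono-culture. No gene passed the test of this difference (limma, smallest adjusted p = 1), and 149 genes (1.09%) had an unadjusted p under 0.05. FFAs in mono-culture called no gene either (smallest adjusted p = 0.972), with 269 (1.97%) at an unadjusted p under 0.05. The largest difference among the genes the rule named was that of SPTSSB, a small subunit of serine palmitoyltransferase, the enzyme that joins serine to palmitoyl-CoA in the first step of sphingolipid synthesis. In mono-culture SPTSSB had 3.05, 2.51 and 5.49 TPM without and 14.9, 16.7 and 16.2 TPM with FFAs, a log2 fold change of 1.90. In co-culture it had 2.89, 9.08 and 6.45 TPM against 7.95, 6.78 and 5.88 TPM, a log2 fold change of 0.24 with full overlap, and -0.15 without control replicate 1. The difference between the cultures was -1.67 (SE 0.45).

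RNF144A, a ubiquitin ligase, had opposite signs in the 2 cultures. It had 9.28, 6.97 and 6.30 TPM in co-cultured control cells and 4.02, 6.31 and 5.23 TPM with FFAs, which just overlapped, and in mono-culture it had 5.55, 4.53 and 5.50 TPM against 7.87, 9.08 and 6.36 TPM. The difference was -0.96 (SE 0.29). The other genes the rule named were SPIN2B, MSI2, ZG16B, MYCBP2 and ASAP1 with a higher effect in co-culture (differences from 0.64 to 0.83), and EPN2, AVL9 and TRIM3 with a lower one (from -1.15 to -0.46). ZG16B, a secreted lectin-like protein, had 9.06, 10.6 and 9.08 TPM in co-cultured control cells and 13.1, 12.4 and 17.0 TPM with FFAs, and 15.1 to 19.1 TPM in the mono-cultured control. Its FFAs-treated co-cultured libraries thus lay nearer to the mono-cultured cells than the co-cultured controls did. MYCBP2, a very large ubiquitin ligase, had the same order, with 3.5, 4.42 and 4.17 TPM in co-cultured control cells, 5.86, 5.36 and 6.93 TPM with FFAs and 5.52 to 6.92 TPM in the mono-cultured control. EPN2, an endocytic adaptor, overlaps B9D1 on the other strand.

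The medians of the gene lists were also set side by side, with no test of their difference. Gluconeogenesis and insulin response genes had a median of -0.33 in mono-cultured cells, against 0.02. The 35 cell cycle genes had 0.28 with 33 higher in mono-culture, against 0.04 with 20 higher in co-culture, but FFAs-treated co-culture replicates 1 and 2 (0.38 and 0.36) were above the mono-culture median and replicate 3 (-0.64) was below it. PPAR-alpha targets had 0.11 and 0.04, and sterol genes 0.17 and 0.04. NRF2 targets had -0.09 in both cultures, and respiratory chain subunits had 0.03 in both.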

How the data were processed

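The study sequenced polyadenylated RNA with SMART-Seq libraries. Per the labels and methods, the authors discarded reads of rRNA, tRNA and mitochondrial DNA with Bowtie2 2.1.0, mapped what was left with STAR 2.7.1a (GRCh38, genes of Ensembl 98), and estimated TPM per gene with RSEM 1.3.0. The deposited TPM were used as they stood. All 37 mitochondrial genes were listed at 0. Depth, and strand in the counting, are not given in the sources used here.

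A gene was kept when its mean reached 1 TPM in either co-cultured group, and log2(TPM + 1) was fitted with limma 3.58.1 (R 4.3.3, empirical Bayes with trend) over all 12 HepG2 libraries as 4 groups, which share 1 estimate of the spread. Fold changes on this scale understate those of low genes. P-values were adjusted over all 13634 genes by Benjamini-Hochberg. Groups were called separated when all 3 libraries of one lay above or below those of the other. On simulated data for this comparison with 13634 genes, 70% of 100 genes changed by 1 on the log2 scale and 99% of 100 genes changed by 2 were recovered, with 9 false calls. The simulated noise was independent between libraries, without the shared shifts of replicates seen here, and only genes above about 5 TPM were changed. In the data 97 genes differed by at least 1 on the log2 scale and none passed. The recovered shares therefore need not hold for these libraries.

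The genes named were the 10 separated protein-coding genes of at least 5 TPM with the smallest p in each direction, list members at an unadjusted p under 0.05 or separated with at least a 1.2-fold difference, up to 4 members of each list with the highest level, ALB, and the 5 genes in each direction with the smallest p for the difference between cultures. Others are said to be chosen after their values were seen: GSTP1, CPT1A, ANGPTL4, PDK4, and the list members given for illustration. The members, lists and tests were chosen with earlier results of these data known. 1 gene that this rule covers is not reported here. Gene positions are those of GENCODE 44 (GRCh38), with which 60295 identifiers matched. Promoters came from RefSeq. Alternatives varied the pseudocount, the TPM filter, the scaling, the samples in the fit, the replicate block and the libraries, and leaving out the third replicates, a term for them, and subtracting the Caco-2 share were chosen after seeing the data. Scripts used Python 3.11.15, numpy 2.4.6, pandas 2.3.3 and matplotlib 3.10.9.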

Additional observations from a re-analysis of the deposited data

Results flagged for a closer look

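Among the named genes, 2 had every FFAs-treated library on one side of every control in co-culture and on the opposite side in mono-culture. Both were named for a small p of the difference between cultures, so opposite signs were favoured by their choice. How many of all genes tested did the same was not counted. MSI2, an RNA-binding protein, had 3.68, 3.07 and 3.09 TPM in co-cultured control libraries and 3.84, 6.57 and 5.42 TPM with FFAs, against 6.04, 5.97 and 6.30 TPM and then 5.22, 5.12 and 4.61 TPM in mono-culture, a difference of 0.78 on the log2 scale (SE 0.26, limma adjusted p = 1). TRIM3, a ubiquitin ligase, had 7, 4.95 and 5.10 TPM in co-cultured control libraries and 4.59, 4.01 and 3.41 TPM with FFAs, against 3.55, 4.51 and 4.22 TPM and then 4.53, 5.23 and 7.03 TPM in mono-culture, a difference of -0.77 (SE 0.28, limma adjusted p = 1). Neither difference passed the adjusted test.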

How the results depend on the processing

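No gene passed the adjusted test of FFAs in co-culture under any of the alternatives run, and the smallest adjusted p in any of them was 0.38 (limma). Of 55 named genes, 46 kept their direction in every alternative that tested them, which were 48 genes at 5 TPM and 53 at a mean of 1 TPM over the 6 libraries. The replicate block, the fit of the 6 libraries alone, limma without trend and the term for the third replicates leave a fold change as it is by design. Many of the named genes were also chosen because their libraries were separated. A separated gene cannot change direction when libraries are left out, so for these genes the kept direction was fixed by the naming rule. The replicate numbers were not taken as pairs in the main fit. The deviations of same-numbered control and FFAs-treated libraries correlated at 0.03, 0.10 and 0.52, so only the third replicates clearly shared a shift. Libraries of unlike number correlated between -0.40 and 0.34. With the replicate number as a block, 319 genes were higher and 244 lower at an unadjusted p under 0.05, against 155 and 104 without it. These counts were 499 and 228 with no filter, 92 and 50 at a minimum of 5 TPM, and from 120 to 292 and from 76 to 185 with single libraries left out, the highest without control replicate 3 (292 and 185). They were 349 and 225 without the third replicates and 286 and 212 with a term for them. Separation with at least a 1.2-fold difference, 263 higher and 165 lower, became 420 higher with no filter, 134 and 82 at 5 TPM, 419 to 934 and 276 to 582 without single libraries, and 1363 and 851 without the third replicates, since fewer libraries have to be separated. Without the third replicates 1 gene passed the adjusted test of the difference between cultures, against 0.

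The medians of some lists shifted when single libraries were left out. Lipid droplet genes ranged from -0.029 to 0.072 (the latter without control replicate 2), fatty acid uptake from -0.18 (without control replicate 3) to 0.052, endoplasmic reticulum from 0.028 to 0.11 (without control replicate 2), acute-phase from -0.14 (without FFAs-treated replicate 3) to 0.16, cytochrome P450 from -0.19 (without control replicate 3) to 0.0013, and glycolysis from -0.057 to 0.018 (without control replicate 3). Without the third replicates, acute-phase was at -0.061, cytochrome P450 at -0.21, glycolysis at 0.071 and intestinal markers at 0.0013. The causes were not tested. Some genes near 0 changed sign. PLIN2 reached 0.0063 under quantile normalization and lay between -0.19 and 0.17 without single libraries, and ALB was 0 under quantile normalization and between -0.21 and 0.098. APOA1 ranged from -0.087 to 0.18, CPT1A from -0.052 to 0.32, TTR from -0.24 to 0.24, MT2A from -0.044 (without control replicate 2) to 1.11 and SPTSSB from -0.15 (without control replicate 1) to 0.54. Without the third replicates APOA1 was -0.020 and TTR -0.16. LDHB and GSTP1 were 0 after the Caco-2 share was subtracted, because the amount subtracted exceeded the measured TPM in all 6 libraries.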
